A study of Mus musculus with 4 samples.

Results

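The genes described here are the matrix metalloproteinases (Mmp), the ADAM proteases (a disintegrin and metalloproteinase), the secreted ADAMTS proteases with thrombospondin repeats, the ADAMTS-like (Adamtsl) glycoproteins and the tissue inhibitors of metalloproteinases (Timp). They were chosen by a match of gene symbol, with earlier results of these data known. The match gave 84 of the 24421 genes in the count tables: 23 Mmp, 33 Adam, 19 Adamts, 5 Adamtsl and 4 Timp genes. Poly(A) RNA was sequenced from mouse neural stem cells on the C57BL/6J background. Cells were taken from the cerebral cortex at embryonic day 17 and grown for 1 day with basic FGF and EGF. Both groups carried floxed Prrc2b alleles (Prrc2b f/f), without Cre in 2 control libraries and with Nestin-Cre in 2 libraries labelled knockout. Nestin-Cre is a recombinase driven by regulatory sequence of Nes, a gene of neural progenitors, so cells that never used that sequence would keep an intact gene. Whether the replicates are separate embryos or cultures is not stated, and p-values therefore describe the spread among these 4 libraries alone, part or all of which may be technical.

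Metalloproteinases cut proteins with a zinc ion held in the active site by histidine side chains. MMPs and ADAMTS enzymes cut collagens, laminins and the proteoglycans of brain matrix, while membrane-bound ADAMs release the outer parts of receptors, ligands and adhesion molecules from the cell surface. TIMPs block these enzymes by binding the active site, and in the developing cortex this balance bears on progenitor niches, migration and blood vessel growth.

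Labels and composition were compared with the counts first. Prrc2b itself stood at 591 ± 4.24 CPM (counts scaled to library size; SD, n = 2) in control and 574 ± 1.37 CPM (SD, n = 2) in the knockout-labelled libraries, a log2 fold change of -0.04 ± 0.02 (SE; edgeR quasi-likelihood test, Benjamini-Hochberg adjusted p = 0.134). A gene-level count does not show whether a floxed exon was lost. Of the Y chromosome, Uty, Kdm5d, Eif2s3y and Ddx3y had 6.81 to 24.1 CPM on average in control and 0 counts in both libraries labelled knockout. Xist was read in all 4, at 1673 and 1615 CPM in control and 2209 and 2119 CPM in the knockout-labelled libraries. It was called higher, with a log2 fold change of 0.40 ± 0.02 (SE; edgeR quasi-likelihood test, adjusted p = 1.92e-18). Genotype, Cre and embryo sex therefore cannot be told apart. Gene totals were 25936794 to 28263272 counts. The chi-square of 2 libraries' counts per gene was 1.96 within control, 2.2 within the knockout label and 20.4 to 21.2 between groups. Of the markers listed for neural stem cells and radial glia, all 11 were read in both groups. Their summed levels were 8882 and 8790 CPM in control and 7759 and 7735 CPM in the knockout-labelled libraries. At an adjusted p under 0.05, 5 of them were lower (45.5%, against 18.1% of all genes): Nes, Vim, Slc1a3, Sox9 and Hopx. Hes5 and Hes1 were higher (18.2%, against 15.1%).

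The catalytic signature of the family is the run of residues HEXXHXXGXXH, in which X is any residue and the 3 histidines hold the zinc. In the coding sequences of the GENCODE M21 transcripts, 56 of the 84 genes carried it, 5 (Adamts1, Adamts4, Adamts9, Adamts15 and Adamts20) carried HEXXHXXNXXH, and 23 carried neither. The TIMPs, the ADAMTS-like genes, Adamts8 and Adam11, Adam22 and Adam23 were among the 23. The codons of the 11 residues are printed for genes that lead the comparison, to show the site itself and the form found in Adamts1 and Adamts4. Capitals mark the codons of the 3 histidines, read 5′ to 3′ on the coding strand. In Adamts1 they encode residues 402 to 412, in Adamts4 residues 369 to 379, in Mmp2 residues 403 to 413, in Mmp14 residues 239 to 249, in Mmp15 residues 255 to 265 and in Adam10 residues 384 to 394.
Adamts1: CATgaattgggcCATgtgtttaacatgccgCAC
Adamts4: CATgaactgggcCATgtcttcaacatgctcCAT
Mmp2: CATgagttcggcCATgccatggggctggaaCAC
Mmp14: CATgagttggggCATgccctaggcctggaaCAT
Mmp15: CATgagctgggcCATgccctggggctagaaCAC
Adam10: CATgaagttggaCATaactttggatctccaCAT

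More of these genes were lower than higher in the knockout-labelled libraries. Of the 84 genes, 53 had enough counts to be tested, and of these 22 were lower, 7 were higher and 24 did not pass an adjusted p of 0.05. The share called in either direction was 54.7% against 33.1% of all 15012 genes tested. The share called lower was 41.5% against 18.1% of all genes, and the share called higher was 13.2% against 15.1%. The share of higher calls was thus near the background and that of lower calls above it. At least 2-fold lower were 7 genes (Timp1, Adamts1, Adamts4, Mmp3, Mmp9, Mmp12 and Mmp19), against 2.08% of all genes tested, and 0 were at least 2-fold higher. In 38 of the 53 the 2 groups did not overlap, 26 lying below control and 12 above, against 64.9% of all genes tested. The median log2 fold change was -0.14 over the 53 genes and 0.00 over all genes. Mmp3 and Mmp12 passed the filter on low counts through the control libraries alone, so their calls are part of that choice. In bulk RNA, fewer cells of a type and less RNA per cell cannot be told apart.

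**Figure D1:**
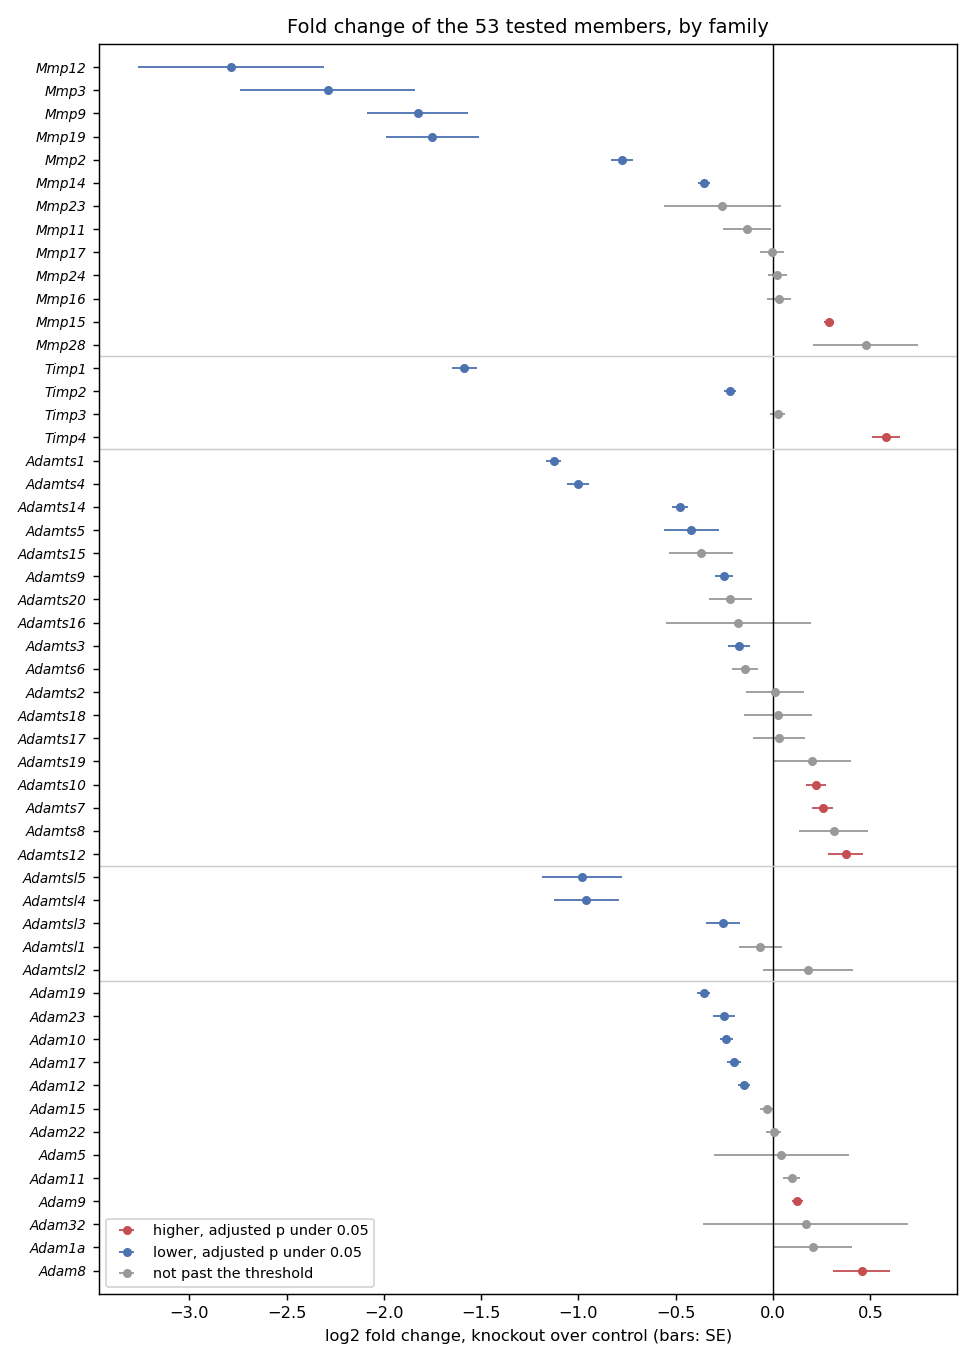
Log2 fold change (knockout-labelled libraries over control, n = 2 each) of the 53 tested genes, by family, with bars for the standard error of the edgeR fit. Points left of 0 are lower in the knockout-labelled libraries: 22 genes were called lower, down to -2.79 for Mmp12, and 7 were called higher, of which Timp4 was the farthest at 0.58.

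Family totals were lower by unequal amounts. Summed over its genes, the ADAMTS level went from 499.8 ± 6.30 CPM (SD, n = 2) in control to 378 ± 8.12 CPM (SD, n = 2), which is 24.3% lower. The TIMP sum went from 352 ± 8.19 to 301 ± 7.18 CPM, 14.6% lower, and the ADAM sum from 1080 ± 13.3 to 1003 ± 1.63 CPM, 7.14% lower. The ADAMTS-like sum was 33.5 ± 0.37 CPM in control and 26.9 ± 0.66 CPM in the knockout-labelled libraries. The MMP sum stayed near its control level, at 697 ± 6.40 and 691 ± 3.90 CPM, with Mmp15 higher and Mmp14 and Mmp2 lower. All 84 genes together came to 2662 ± 7.26 CPM in control and 2399 ± 3.87 CPM in the knockout-labelled libraries, 9.89% lower, and no test was run on these sums.

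**Figure D2:**
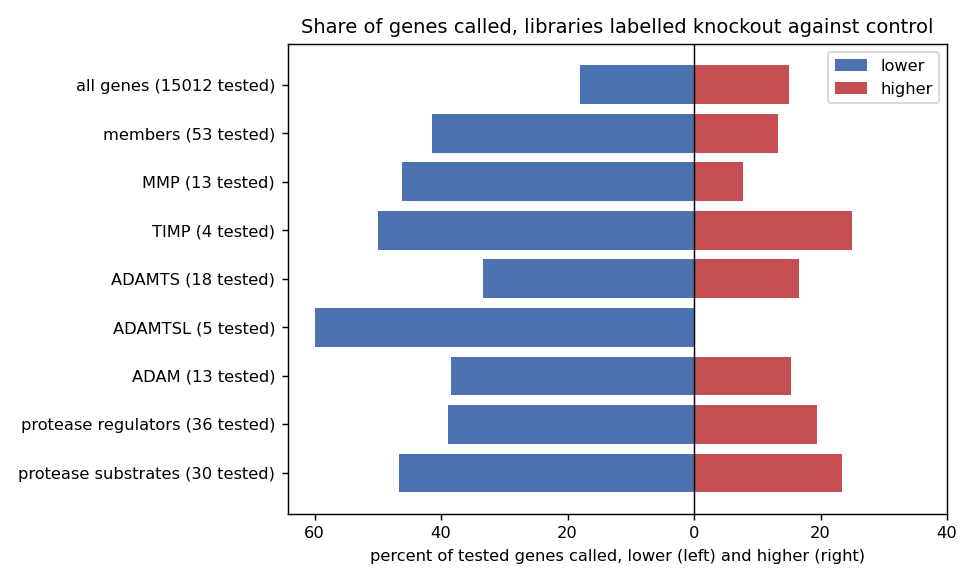
Percent of tested genes called lower (left) and higher (right) in the knockout-labelled libraries against control at an adjusted p under 0.05, for all genes, the 53 tested matrix protease and inhibitor genes (members), the 5 families and the regulator and substrate lists. The bar of lower calls reaches 41.5% for the members and 18.1% for all genes, and the bars of higher calls 13.2% and 15.1%.

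Of the 4 inhibitors, Timp1 and Timp2 fell, Timp4 rose and Timp3 did not pass. Timp1 (X:20870166-20874735, plus strand, GRCm38), a secreted inhibitor with a broad range of MMP targets, stood at 44.1 and 45.2 CPM in control and at 14.2 and 15.6 CPM in the knockout-labelled libraries. Both knockout-labelled libraries lay far below both control libraries. The log2 fold change was -1.59 ± 0.06 (SE; edgeR quasi-likelihood test, adjusted p = 6.02e-22), a 3.00-fold lower level. Timp1 is the 1 gene of the 84 on the X chromosome. The groups also differ in their Y-linked genes and in Xist, whose part in the change of Timp1 was not tested. Timp2 (11:118301069-118355740, minus strand), which besides inhibiting MMPs helps MT1-MMP to activate pro-MMP2, had 207 and 218 CPM in control and 188 and 176 CPM in the knockout-labelled libraries. Its groups did not overlap, and it fell by 0.22 ± 0.03 on the log2 scale (adjusted p = 6.85e-07). Timp4 (6:115241892-115252205, minus strand), an inhibitor with a narrower tissue range that includes brain, had 14.6 and 14.4 CPM in control and 21.7 and 21.8 CPM in the knockout-labelled libraries. It rose in both, by 0.58 ± 0.07 (adjusted p = 4.42e-08). Timp3 (10:86300372-86349506, plus strand) is held in the matrix and inhibits ADAM17 and ADAMTS enzymes as well as MMPs. It was read at 80.9 and 80.5 CPM in control and at 81.7 and 82.5 CPM in the knockout-labelled libraries, a log2 fold change of 0.02 ± 0.04 (adjusted p = 0.673).

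The mix of inhibitor transcripts moved accordingly. Per kilobase of exon, which allows levels of different genes to be compared, Timp1 made up 43.2% and 42.7% of the TIMP total in the control libraries and 20.5% and 22.9% in the knockout-labelled libraries. The Timp2 share was 46.1% and 46.9% in control and 61.9% and 59.0% in the knockout-labelled libraries. Timp3 held 8.63% and 8.30% in control against 12.9% and 13.2%, and Timp4 held 2.15% and 2.06% against 4.72% and 4.83%. Timp1 and Timp2 were thus close to equal in control, and in the knockout-labelled libraries Timp2 was the most abundant inhibitor transcript. These shares are parts of 1 total, so the lower Timp1 level alone raises the other shares.

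Both gelatinases, which cut denatured collagen and the type IV collagen of basement membranes, fell. Mmp2 (8:92827291-92853420, plus strand) had 42.5 and 43.3 CPM in control and 24.0 and 26.2 CPM in the knockout-labelled libraries. The groups were well apart, with a log2 fold change of -0.78 ± 0.06 (adjusted p = 5.52e-14). Mmp9 (2:164940780-164955850, plus strand) was scarce, at 2.57 and 3.05 CPM in control and 0.955 and 0.616 CPM in the knockout-labelled libraries. It fell by 1.83 ± 0.26 on the log2 scale (adjusted p = 3.81e-07). Per kilobase of exon, the control level of Mmp2 was 12.7 CPM and that of Mmp9 0.795 CPM. Mmp2 is known from fibroblasts and perivascular cells, among others. Markers of mural, fibroblast and meningeal cells mostly moved with it: 8 of 11 fell (72.7%, against 18.1% of all genes). The other 3, Acta2, Cspg4 and Igf2, rose (27.3%, against 15.1%), and Cspg4 is also in the oligodendrocyte lineage list. The summed level of the 11 was 288 and 280.5 CPM in control and 201 and 210.3 CPM in the knockout-labelled libraries. Of 8 endothelial markers 7 were tested: 3 fell (42.9%, against 18.1% of all genes) and 1 rose (14.3%, against 15.1%). The summed level of the 8 was 189.9 and 190.04 CPM in control and 107 and 111 CPM in the knockout-labelled libraries. Most of that sum was Slc2a1, at 169.0 and 168.5 CPM in control and 92.8 and 95.2 CPM in the knockout-labelled libraries. Cdh5 and Flt1 also fell and Kdr rose. Cldn5, Pecam1 and Emcn did not pass, and Tek was not tested. No marker of either list was at 0 in both libraries of a group, and their part in the result was not tested.

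Among the 6 membrane-type MMPs, Mmp14 fell, Mmp15 rose and 3 of the others did not pass. Mmp14 (14:54431612-54445364, plus strand) encodes MT1-MMP, the main cell-surface activator of pro-MMP2. It had 231 and 227 CPM in control and 181 and 177 CPM in the knockout-labelled libraries, with no overlap, and fell by 0.36 ± 0.03 (adjusted p = 7.76e-13). Its close relative Mmp15 (8:95352268-95375080, plus strand), MT2-MMP, had 295 and 306 CPM in control and 365 and 370.4 CPM in the knockout-labelled libraries. Mmp15 lay higher in both, by 0.29 ± 0.03 (adjusted p = 1.2e-11), opposite in sign to Mmp14. Per kilobase of exon, Mmp15 was the highest of the tested genes in control, at 55.7 CPM, and stood at 68.1 CPM in the knockout-labelled libraries, while Mmp14 stood at 38.4 and 30.0 CPM. Mmp16, Mmp17 and Mmp24, the last an MT-MMP of neural tissue, had log2 fold changes of 0.03 ± 0.06, -0.01 ± 0.06 and 0.02 ± 0.05. Mmp25 had 2 to 8 counts and was not tested.

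Of the remaining 6 tested MMPs, Mmp19, Mmp12 and Mmp3 fell and 3 did not pass, all at a few CPM or less in control apart from Mmp11, at 6.63 and 7.24 CPM. Mmp19 (10:128790910-128800824, plus strand), a secreted MMP of many tissues, had 2.92 and 3.30 CPM in control and 1.03 and 0.808 CPM in the knockout-labelled libraries, and fell by 1.75 ± 0.24 (adjusted p = 1.77e-07). Of its 3533 exon bases, 789 are shared with Tmem198b on the opposite strand. Mmp12, macrophage elastase, had 30 and 27 counts in the control libraries and 4 and 4 in those labelled knockout, a log2 fold change of -2.79 ± 0.48 (adjusted p = 1.15e-05). Mmp3, stromelysin 1, an activator of other pro-MMPs, had 24 and 36 counts in control and 3 and 9 in the knockout-labelled libraries. Its log2 fold change was -2.29 ± 0.45 (adjusted p = 9.66e-05), and it was -1.65 without knockout replicate 1 and -3.32 without knockout replicate 2. For each of the 3 the groups did not overlap, which also held for 64.9% of all genes tested. Mmp12 and Mmp3 passed the low-count filter through control alone, so their calls and the lack of overlap are part of that choice. Mmp11, stromelysin 3, Mmp23 and Mmp28 did not pass, with log2 fold changes of -0.13 ± 0.12, -0.26 ± 0.30 and 0.48 ± 0.27. Markers of microglia and macrophages, cells known to make Mmp9 and Mmp12, were low and moved with these genes. The summed level of 11 such markers was 7.00 and 8.13 CPM in control and 3.43 and 2.81 CPM in the knockout-labelled libraries. Of the 11, 6 were tested and 5 were called lower (83.3% of those tested, against 18.1% of all genes). But C1qa, C1qb, C1qc and Ctss passed the low-count filter through control alone. P2ry12, the other of the 5, had 35 and 50 counts in control and 25 and 20 in the knockout-labelled libraries, and the untested Aif1 went the other way, with 2 and 3 counts against 15 and 8. None was at 0 in both libraries of a group, and their part in the result was not tested.

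**Figure D3:**
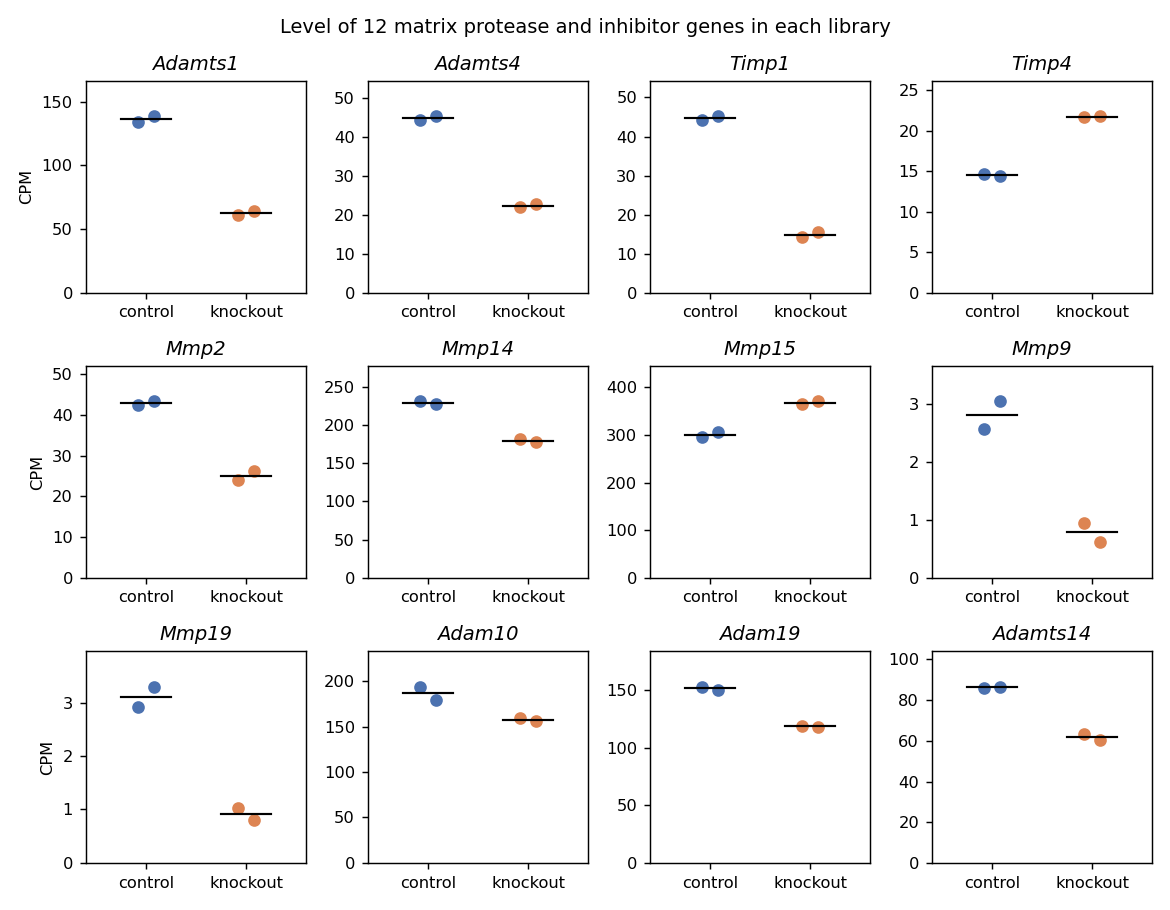
Level in CPM of leading genes in each of the 4 libraries, 2 control and 2 labelled knockout, with each axis starting at 0. Points are libraries and bars are group means. Timp1, Adamts1, Adamts4 and Mmp2 lie lower in both knockout-labelled libraries, and Mmp15 and Timp4 lie higher.

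The proteoglycan-cleaving ADAMTS enzymes were lower where they changed. They cut versican, brevican and aggrecan, the large proteoglycans of brain matrix. Of the 7, 4 fell (57.1%, against 18.1% of all genes), 0 rose (against 15.1%) and 3 did not pass. The median log2 fold change was -0.37. This and the other groups by role were chosen with earlier results of these data known. Adamts1 (16:85793827-85803113, minus strand) had 134 and 138 CPM in control and 60.6 and 64.2 CPM in the knockout-labelled libraries. Each library labelled knockout thus held less than either control library, and the log2 fold change was -1.13 ± 0.04 (adjusted p = 2.55e-24), the smallest p among the 53 genes. Adamts4 (1:171250421-171260637, plus strand) had 44.2 and 45.2 CPM in control and 21.9 and 22.7 CPM in the knockout-labelled libraries, and fell by 1.00 ± 0.06 (adjusted p = 2.94e-17). Adamts9 (6:92772699-92943492, minus strand), at 53.6 and 54.2 CPM in control and 45.3 CPM in both knockout-labelled libraries, fell by 0.25 ± 0.05 (adjusted p = 4.25e-05). All of these carry the variant HEXXHXXNXXH site printed above for Adamts1 and Adamts4. The other carriers, Adamts15 and Adamts20, had log2 fold changes of -0.37 ± 0.16 and -0.22 ± 0.11 and did not pass. Adamts5, the other main aggrecanase, had 6.74 and 5.43 CPM in control and 4.53 and 4.54 CPM in the knockout-labelled libraries, with a log2 fold change of -0.42 ± 0.14 (adjusted p = 0.0189). That call was lost without control replicate 1 (adjusted p = 0.293), without either knockout replicate (0.0769 and 0.0650), with no low-count filter (0.0534) and with DESeq2 (0.190). Adamts8 had a log2 fold change of 0.31 ± 0.18 (adjusted p = 0.18). Astrocyte markers mostly moved with this group: 5 of 7 fell (71.4%, against 18.1% of all genes) and 1 rose (14.3%, against 15.1%). Their summed levels were 2809 and 2832 CPM in control and 1877 and 1873 CPM in the knockout-labelled libraries. Of that sum, Gfap held 859.5 and 879 CPM in control and 327 and 322 CPM in the knockout-labelled libraries. No astrocyte marker was at 0 in both libraries of a group, and the part of these markers in the result was not tested.

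Of the 3 procollagen N-proteinases, which trim the amino-terminal propeptide of fibrillar collagens, 2 fell (66.7%, against 18.1% of all genes). Adamts14 had 86.0 and 86.7 CPM in control and 63.5 and 60.2 CPM in the knockout-labelled libraries, and fell by 0.48 ± 0.04 (adjusted p = 2.45e-12). Adamts3, which also cuts reelin, had 34.0 and 34.4 CPM in control and 30.7 and 29.9 CPM in the knockout-labelled libraries. Its log2 fold change was -0.17 ± 0.06 (adjusted p = 0.0144), and the call was lost without control replicate 2 (0.0625), without knockout replicate 2 (0.0970) and with DESeq2 (0.173). Adamts2 overlapped between groups, at 5.04 and 4.05 CPM in control and 4.42 and 4.69 CPM in the knockout-labelled libraries.

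The remaining ADAMTS genes went the other way or did not pass. Of 8 tested, Adamts7, Adamts10 and Adamts12 rose (37.5%, against 15.1% of all genes) and 0 fell (against 18.1%). Adamts7 and Adamts12, a related pair that cut cartilage oligomeric matrix protein, rose by 0.25 ± 0.06 and 0.37 ± 0.09 (adjusted p = 0.000385 and 0.000919). Adamts7 had 33.1 and 36.3 CPM in control and 40.01 and 43.0 CPM in the knockout-labelled libraries, and Adamts12 had 12.001 and 11.7 CPM against 14.4 and 16.3 CPM. Adamts10, which binds fibrillin microfibrils, had 34.6 and 36.2 CPM in control and 40.5 and 42.2 CPM in the knockout-labelled libraries, a rise of 0.22 ± 0.05 (adjusted p = 0.00108). In none of the 3 did the groups overlap, which also held for 64.9% of all genes tested. The ADAMTS-like genes encode matrix glycoproteins that lack the protease domain, and 3 of the 5 fell (60%, against 18.1% of all genes). Adamtsl4, a fibrillin-binding member, had 5.19 and 5.00 CPM in control and 2.23 and 3.04 CPM in the knockout-labelled libraries, and fell by 0.96 ± 0.17 (adjusted p = 1.64e-05). Adamtsl5 fell by 0.98 ± 0.21 (adjusted p = 0.000232). Adamtsl3 had a log2 fold change of -0.26 ± 0.09 (adjusted p = 0.0173), a call lost without control replicate 1 (0.171), with DESeq2 (0.188) and without either knockout replicate (0.0580 and 0.0778). Adamtsl1 and Adamtsl2 did not pass.

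**Figure D4:**
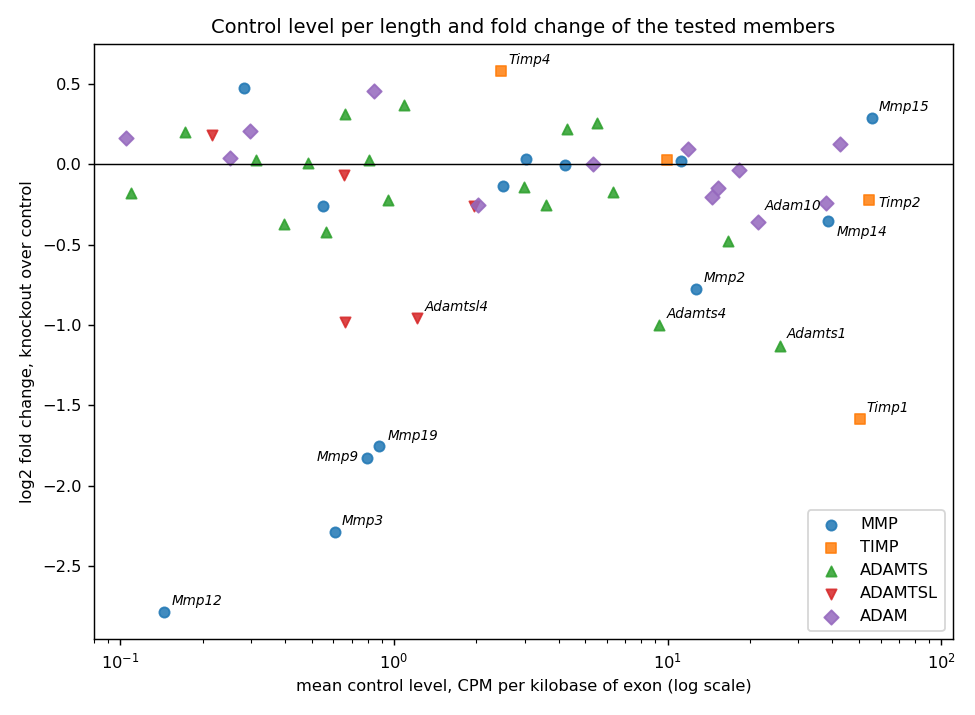
Mean control level in CPM per kilobase of exon (x axis, log scale) against log2 fold change, knockout-labelled libraries over control (y axis), for the 53 tested genes, with 1 symbol per family. Timp1, at 50.3 CPM per kilobase in control, lies at -1.59, while Mmp15 at 55.7 and Timp2 at 54.4 lie at 0.29 and -0.22.

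Cell-surface ADAMs moved by less, with most of the broadly expressed sheddases called. Of the 7 tested, 4 fell (57.1%, against 18.1% of all genes), 2 rose (28.6%, against 15.1%) and Adam15 did not pass. Adam10 (9:70678997-70780229, plus strand) is the alpha-secretase that cuts Notch receptors, amyloid precursor protein and N-cadherin. It had 194 and 179 CPM in control and 159.8 and 156 CPM in the knockout-labelled libraries, and fell by 0.24 ± 0.03 (adjusted p = 2.47e-07) with no overlap. Adam17 (12:21323509-21373632, minus strand), the tumour necrosis factor convertase that also frees EGF receptor ligands, had 104 and 103 CPM in control and 89.8 and 90.0 CPM in the knockout-labelled libraries, and fell by 0.20 ± 0.04 (adjusted p = 2.17e-05). Adam19 (11:46055992-46147343, plus strand), which processes neuregulins, had 153 and 150.4 CPM in control and 119 and 118 CPM in the knockout-labelled libraries, and fell by 0.36 ± 0.03 (adjusted p = 1.39e-11). Adam12 fell by 0.15 ± 0.03 (adjusted p = 0.00023). These falls were of 1.11- to 1.28-fold, far smaller than those of Timp1 or Adamts1. Adam9 stood higher in the knockout-labelled libraries, at 194 and 188 CPM against 175 and 176 CPM, a rise of 0.12 ± 0.03 (adjusted p = 0.00109). Adam8, an ADAM of myeloid cells, had 4.20 and 3.66 CPM in control and 5.55 and 5.19 CPM in the knockout-labelled libraries. Its log2 fold change was 0.46 ± 0.15 (adjusted p = 0.014), and the call was lost without control replicate 2 (0.139), without knockout replicate 1 (0.116) and with DESeq2 (0.175). Adam15 was read at 113 and 112 CPM in control and at 107 and 113 CPM in the knockout-labelled libraries.

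Adam11, Adam22 and Adam23 lack the zinc site and act in neurons as adhesion molecules, Adam22 and Adam23 as receptors of the LGI proteins at synapses. Adam23 had 37.1 and 35.6 CPM in control and 31.8 and 29.1 CPM in the knockout-labelled libraries, and fell by 0.25 ± 0.06 (adjusted p = 0.0006). Adam22 overlapped between groups, at 75.3 and 77.4 CPM in control and 76.2 and 76.9 CPM in the knockout-labelled libraries. Adam11 had 68.0 and 66.6 CPM in control and 69.6 and 74.3 CPM in the knockout-labelled libraries, and its log2 fold change of 0.10 ± 0.04 did not pass (adjusted p = 0.0802). It passed under upper quartile scaling (adjusted p = 0.0211) and without knockout replicate 1 (0.0274). Over all genes with a zinc site of either form, 38 of 61 were tested, of which 16 fell and 6 rose. Of the 23 genes without one, 15 were tested, of which 6 fell and 1 rose. Of all genes tested, 18.1% fell and 15.1% rose, so the share that fell was above the background in both sets. The split rests on the letters of the site alone, and it placed Adamts8, grouped above with the proteoglycan-cleaving enzymes, among the 23.

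The 31 genes that were not tested were 20 ADAM, 10 MMP and 1 ADAMTS genes. Of these, 14 had 0 counts in all 4 libraries, and the highest total over the 4 libraries was 28 counts, for Adam2, a sperm-surface ADAM. At these depths 3 counts stand for 0.106 to 0.116 CPM, so levels below that were not detectable. No collagenase was tested: Mmp13 had 12 and 10 counts in control and 2 and 0 in the knockout-labelled libraries, Mmp8 had 2 counts and Mmp1a 3 counts in all, both in control, and Mmp1b had 0.

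Chromosome 9 holds 10 of the Mmp genes, among them the collagenases, the stromelysins Mmp3 and Mmp10, and Mmp12. Of these, Mmp3 and Mmp12 were tested, both through their control counts alone, so that they are called lower is in part fixed by the filter. Their start regions are printed because they show a letter pattern that recurs in this cluster, TGANTCA, where N is any base. The pattern includes the binding site known for AP-1 transcription factors, TGAGTCA or TGACTCA. It is wider than that site, as it also takes in the TGAATCA of Mmp20. The pattern is the same on both strands. RefSeq start windows on GRCm38.p6 (250 bases before and 50 after the start) were matched for 53 of the 84 genes, and 13 of these held the pattern (24.5%) against 2425 of 27025 genes with a window (8.97%). Another pattern, TTCNNNGAA, also the same on both strands and known for STAT factors, was in 3 of the 53 (5.66%) against 9.55% of all genes. Of the 13 genes with TGANTCA, Mmp3, Mmp12 and Adam19 were tested, too few to compare with the other genes, since the filter kept Mmp3 and Mmp12 through control. The 150 bases before the start are given, with TGANTCA in capitals, for those 3 and for Mmp13, whose few counts were mostly in control. Mmp3 is shown from 9:7445672-7445821 with the pattern 46 bases before the start, and Mmp13 from 9:7272364-7272513 with it 35 bases before. Mmp12 is shown from 9:7347224-7347373, with the pattern 44 bases before that start in 1 of its 2 windows. Adam19 is shown from 11:46055834-46055983, with the pattern 131 bases before in 1 of its 3 windows. All are on the plus strand. A match of letters does not show binding.
Mmp3: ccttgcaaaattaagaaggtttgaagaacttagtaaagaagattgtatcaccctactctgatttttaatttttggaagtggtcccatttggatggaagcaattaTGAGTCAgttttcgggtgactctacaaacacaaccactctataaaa
Mmp13: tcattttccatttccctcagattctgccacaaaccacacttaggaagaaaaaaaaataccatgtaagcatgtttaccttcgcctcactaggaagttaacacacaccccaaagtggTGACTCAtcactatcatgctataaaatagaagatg
Mmp12: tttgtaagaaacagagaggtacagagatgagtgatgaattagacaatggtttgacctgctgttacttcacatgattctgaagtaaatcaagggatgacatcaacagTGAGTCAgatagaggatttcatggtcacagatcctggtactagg
Adam19: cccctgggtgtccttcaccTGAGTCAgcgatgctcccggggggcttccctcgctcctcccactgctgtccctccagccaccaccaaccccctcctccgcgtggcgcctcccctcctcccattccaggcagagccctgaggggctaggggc

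Genes that activate, anchor or restrain these proteases changed in both directions. Of 40 such regulators 36 were tested, of which 14 fell (38.9%, against 18.1% of all genes), 7 rose (19.4%, against 15.1%) and 15 did not pass. This list was chosen with earlier results of these data known, so its shares only describe the genes chosen and are no test of regulators. Fap, 1 of the 14, had 23 and 18 counts in control and 4 and 6 in the knockout-labelled libraries. It passed the low-count filter through control alone, so its call is part of that choice. The median log2 fold change was -0.01, against 0.00 over all genes. The urokinase system, which generates plasmin and so activates pro-MMPs, was lower: Plau, urokinase, had 4.43 and 5.07 CPM in control and 1.38 and 1.58 CPM in the knockout-labelled libraries and fell by 1.69 ± 0.19 (adjusted p = 3.46e-09). Its receptor Plaur fell by 1.55 ± 0.20 (adjusted p = 6.76e-08). Plat, the tissue activator, was read at 259 and 268 CPM in control and at 279.9 and 283 CPM in the knockout-labelled libraries. Its log2 fold change was 0.10 ± 0.03 (adjusted p = 0.00524), and the call was lost without control replicate 1 (0.0736), with DESeq2 (0.0506) and without knockout replicate 2 (0.0521). Serpine2, an inhibitor of both activators, did not pass, with a log2 fold change of 0.01 ± 0.02. Rhbdf2 and Frmd8, partners that bring ADAM17 to the cell surface, fell by 0.80 ± 0.12 and 0.32 ± 0.04 (adjusted p = 7.3e-07 and 1.41e-09), in the same direction as Adam17. Bmp1, the procollagen C-proteinase, fell by 0.33 ± 0.03, the plasma-type inhibitor A2m by 0.27 ± 0.02, and the serpin Serpinf1 by 1.47 ± 0.19. Bsg, basigin, a membrane protein known to induce MMPs, rose by 0.33 ± 0.02 (adjusted p = 4.43e-15). Reck, a membrane-anchored inhibitor of MMPs and Adam10, had 16.01 and 15.4 CPM in control and 17.7 and 16.8 CPM in the knockout-labelled libraries, and did not pass (0.13 ± 0.08, adjusted p = 0.194).

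Of 30 known substrates, all tested, 14 fell (46.7%, against 18.1% of all genes), 7 rose (23.3%, against 15.1%) and 9 did not pass. Their median log2 fold change was -0.09. The list was drawn up after the data were seen, so its shares only describe the genes chosen and are no test of substrates. Among the cell-surface substrates of Adam17 and Adam10, the EGF receptor ligand Hbegf had 87.2 and 90.0 CPM in control and 42.6 and 44.2 CPM in the knockout-labelled libraries and fell by 1.03 ± 0.04. Tgfa, another such ligand, rose by 0.25 ± 0.06. The Notch ligand Dll1 had 71.8 and 75.2 CPM in control and 132 and 136 CPM in the knockout-labelled libraries and rose by 0.87 ± 0.04. Of the Notch receptors, Notch1 rose by 0.07 ± 0.03 (edgeR quasi-likelihood test, adjusted p = 0.0313) and Notch2 fell by 0.15 ± 0.04 (adjusted p = 0.000886). Cdh2, N-cadherin, fell by 0.28 ± 0.03 and App by 0.10 ± 0.02. Basement membrane components went in both directions: Col4a1, Col4a2 and Nid1 fell by 0.58 ± 0.04, 0.59 ± 0.04 and 0.69 ± 0.06, Lamc1 and Lama1 fell by 0.28 ± 0.03 and 0.36 ± 0.11, Hspg2, perlecan, rose by 0.10 ± 0.03 (adjusted p = 0.0184), and Lamb1 did not pass (-0.04 ± 0.06). Of the proteoglycans cut by ADAMTS enzymes, Vcan fell by 0.31 ± 0.03, Bcan rose by 0.11 ± 0.02, and Ncan and Acan did not pass. Tnc, tenascin C, fell by 0.65 ± 0.02. Messenger RNA levels of enzymes and substrates do not measure cleavage.

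Markers of other cells moved beside the genes that rose. Of 8 choroid plexus markers 7 rose (87.5%, against 15.1% of all genes) and 0 fell. Their summed levels were 213 and 219.7 CPM in control and 1355 and 1370.0 CPM in the knockout-labelled libraries. Most of that sum was Ttr, at 178 and 186 CPM in control and 1271 and 1290 CPM in the knockout-labelled libraries. Kl, 1 of the 7, had 8 and 6 counts in control against 30 and 24. It passed the low-count filter through the knockout-labelled libraries alone, so its call is part of that choice. Of 8 neuronal markers 4 rose and 1 fell, and of 8 oligodendrocyte lineage markers 4 rose and 1 fell. In each of those lists 50% rose and 12.5% fell, against 15.1% and 18.1% of all genes. The part of these markers in the higher levels of Mmp15, Timp4, Adamts7, Adamts10 and Adamts12 was not tested. Some exons are shared with genes on the other strand, and the sources used here do not say whether counting used the strand. The shared stretch is 1733 of 8144 exon bases for Timp3 (with Syn3) and 1263 of 6145 for Adam15 (with 4731419I09Rik). Adam19 shares 587 bases with Gm16033 and 480 with Gm16034, of 7115. Adamts9 shares 1381 with A730049H05Rik and 424 with Gm15737, of 15048. The stretch is 637 of 4683 for Mmp24 (with BC029722), 311 of 7154 for Adam17 (with Iah1) and 157 of 7237 for Mmp12 (with Mmp1b). Other genes described here have such stretches as well.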

How the data were processed

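The files hold raw counts per gene symbol as deposited, with no normalization. The submitters' processing notes name HISAT2 2.2.1, HTSeq 0.12.4, DESeq2 1.26.0 and mm10, without roles. The sources used here give neither the annotation nor the strand setting. The 5 summary lines of each table (25.2% of entries in both control libraries, 26.1% and 25.8% in knockout replicates 1 and 2) were left out. Groups and replicate numbers came from the sample titles.

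The test was edgeR 4.0.16 under R 4.3.3 (filterByExpr, TMM scaling, quasi-likelihood test with legacy off, all 4 libraries, no covariates), with Benjamini-Hochberg adjustment over 15012 genes at 0.05. SE is the absolute log2 fold change divided by the root of the F statistic, and CPM uses TMM-scaled totals. Levels per kilobase use merged exons of GENCODE M21 on GRCm38, the assembly of mm10. Start windows came from RefSeq (GRCm38.p6). The steps were tested on simulated data. Floors of 3 counts cover counting error only, since the reads carry no molecular identifiers. Leave-one-out fits repeated the filter on 3 libraries and assume that the lone library varies like the other group. Other alternatives used DESeq2 1.42.0, limma 3.58.1 voom, other scalings and filters, and a replicate block.

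Named with values were all Timp genes, Mmp2, Mmp9, Mmp14, Adam10, Adam17, Adamts1, Adamts4 and Adamts5, called members with a mean log2 CPM of at least 1 (at most 30), the 5 highest members not called, and 8 regulators with the smallest p, plus Reck, Plat, Plau and Serpine2; 1 other gene of this rule is not reported here. Called members at lower level were named with their fold change. Other names were added after their values were seen. The substrate list and its alternatives were added after the data were seen. Members and lists were chosen with earlier results of these data known. The zinc site was read from translated GENCODE coding sequences.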

Additional observations from a re-analysis of the deposited data

How the results depend on the processing

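Over all alternatives, 19 to 22 of the genes were called lower and 6 to 8 higher, against 22 and 7. DESeq2 called 19 and 6, and leaving out 1 library gave 20 to 21 lower and 6 to 7 higher. Over all genes, DESeq2 called 1055 higher and 1642 lower, and an adjusted p under 0.01 left 1490 higher. Under upper quartile scaling 2939 genes were higher and 2288 lower, a share of higher calls of 56.2% against 45.5%. Of 596 pairs of a named gene and an alternative, 570 kept direction and side of the threshold, 18 lost the call, 2 gained it and 6 changed sign. The sign changes were in genes not called, all with 1 library left out: log2 fold changes ranged from -0.076 to 0.0087 for Adam15 (positive without knockout replicate 1), from -0.015 to 0.022 for Adam22 (-0.0027 without knockout replicate 2), from -0.015 to 0.060 for Mmp24 (-0.0014 without control replicate 2) and from -0.0014 to 0.023 for Serpine2. Among the substrates 7 were called higher, but 4 with no low-count filter, with DESeq2, without control replicate 1 and at an adjusted p under 0.01, and 3 without knockout replicate 2. The cause was not tested. Of the regulators, 11 to 15 were lower and 5 to 9 higher over the alternatives, with 11 and 5 under DESeq2. With the replicate number as a block, 22 members were lower and 7 higher, and 15 regulators were lower and 8 higher. Replicate differences correlated at r = 0.0041 between groups over genes, so the numbers do not show a pairing. Depth limits Mmp3, Mmp12 and the genes not tested.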
